A study of Drosophila melanogaster with 4 samples.

Results

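The interior of chromosome arm 3L of *Drosophila melanogaster* held 1198 of the 10603 regions in the combined list of Su(var)3-7 enrichment. A region was taken as a member when its midpoint lay more than 1 Mb from the telomere-side end and more than 5 Mb from the centromere-side end of the arm as assembled in FlyBase release 5. This interval measures 18.5 Mb of 24.5 Mb. The same interval held 523 of 6098 regions in ChIP replicate 1 and 563 of 6295 in ChIP replicate 2. All libraries came from wild-type Oregon-R embryos aged 14 to 16 h and fixed with 1.8% formaldehyde. Whole embryos mix many cell types, so a region found in few cells and one weakly bound in all cells cannot be told apart. There were 2 ChIP libraries, made with the antibody Q3448, and 2 input libraries of genomic DNA, each the control of the ChIP library with its number. The labels do not say whether the replicates were separate embryo collections.

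Su(var)3-7 is a zinc-finger protein that binds the heterochromatin proteins HP1 and SU(VAR)3-9, and its gene was found through mutations that suppress position-effect variegation, the patchy silencing of genes placed next to heterochromatin. On polytene chromosomes it is best known from the chromocentre, where pericentric heterochromatin gathers. The long interior of an arm is mostly gene-bearing euchromatin, in which silent chromatin forms local islands rather than a continuous block. The region lists carry positions, widths and scores and no gene names, and positions of genes were at hand for release 6 only. Regions are therefore named by their release 5 coordinates on 3L.

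The interior was sparsely covered in comparison with the rest of the arm. Coverage, the percent of bases inside enriched regions, was 6.29% in replicate 1 and 6.76% in replicate 2, with a mean of 6.52% ± 0.338 (SD, n = 2). The combined list covered 14.2% of the interior, or 2.63 Mb. In the centromere-side 5 Mb it was 41.1% and 37.7%, and in the telomere-side 1 Mb 15.4% and 17.9%. The interior therefore lay below both flanks in each replicate. Relative to the centromere-side 5 Mb its regions were also narrower, with medians of 1948 bp against 2663 bp in replicate 1 and 1932 bp against 2537 bp in replicate 2. Their median scores were lower as well, 0.524 against 0.671 and 0.626 against 0.763. The score is the authors' own value for each region. Its scale is not given in the sources used here, so score levels are compared only among regions of the same list. At this coverage the label of the interval as euchromatic goes with sparser and lower-scoring regions than on its centromere side, but the lists hold no other chromatin mark by which to check it.

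At its edges the interval cut through no enriched region. The first member was 1006856 to 1008517 (score 0.295), found in replicate 1 alone, and the nearest region outside was 967490 to 969405 (0.369). The last member was 19508789 to 19510873 (0.671), found in both replicates, and the next region outside was 19544216 to 19546914 (0.419).

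Coverage varied along the interior by more than the replicates differed. In windows of 1 Mb it ran from 2.99% ± 0.189 between 10 and 11 Mb to 13.0% ± 1.03 between 16 and 17 Mb (SD, n = 2), a 4.36-fold range. The SD of the means over the 18 full windows was 2.90 percentage points, and the SD between replicates within a window, pooled over windows, was 0.786. Next to the telomere-side edge, coverage was 11.2% in replicate 1 and 12.8% in replicate 2, and in the window after it 3.63% and 4.88%. An isolated rise stood between 8 and 9 Mb, at 9.39% and 8.08%, with 3.07% and 4.42% in the window before it and 4.10% and 5.18% in the window after it.

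From 16 Mb on, coverage stayed above the median of the full windows, 5.53%, in both replicates. It was 12.3% and 13.7% in the seventeenth megabase of the arm, 9.06% and 9.96% in the next window, 8.26% and 7.68% in the one after, and 12.3% and 10.5% in the last 0.544 Mb. No window between 2 and 16 Mb reached 10% in either replicate, and neither did those from 17 to 19 Mb. The mean from 18 to 19 Mb, 7.97%, was below the 8.74% of the rise between 8 and 9 Mb. Replicate 2 was the higher one in 13 of 19 windows, and the replicates were at most 1.81 percentage points apart. Across the 18 full windows the Pearson r between replicates was 0.943, a description over windows of the same 2 libraries.

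**Figure D1:**
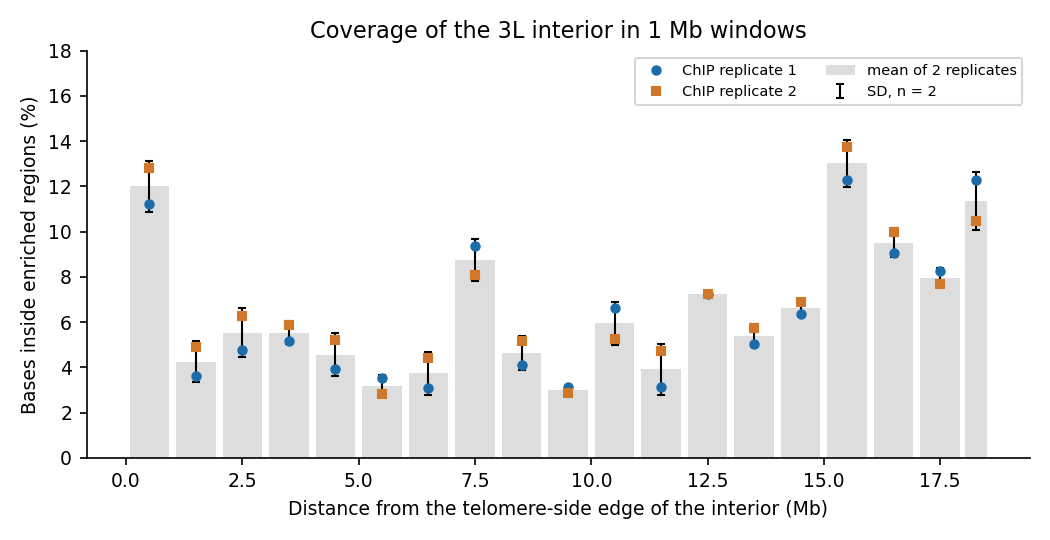
Percent of bases inside enriched regions in windows of 1 Mb along the 3L interior, by distance from its telomere-side edge. Bars are means of 2 ChIP replicates with their SD, points are the replicates, and the last window is 0.544 Mb long. The first window and the last 4 stand above most of the rest, with an isolated rise at the eighth.

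Divided into 3 equal segments of 6.18 Mb, the interior was covered most on the centromere side. That segment was covered over 8.48% in replicate 1 and 8.79% in replicate 2, against 5.27% and 6.21% in the telomere-side segment and 5.11% and 5.29% in the middle. The ratio of the centromere-side to the telomere-side segment was 1.61 and 1.42, with a mean of 1.51 ± 0.137 (SD, n = 2). By number of combined regions the segments held 475, 347 and 376 in that order. Scores did not follow coverage: the median combined score was 0.377, 0.387 and 0.384 in the same order. In replicate 1 the medians were 0.530, 0.536 and 0.516, and in replicate 2 they were 0.619, 0.653 and 0.610.

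Stretches of the genome are compared within the same 2 libraries. With 2 such pairs the smallest two-sided p of an exact paired permutation test is 0.5, so no difference between stretches of the genome was tested, and each is given with its replicate values. The most alike stretches are the interiors of 2L and 3R, cut in the same way. They were covered over 4.67% and 5.39% (2L) and over 4.93% and 5.83% (3R) in replicates 1 and 2. Both values of 3L, 6.29% and 6.76%, lay above all 4 of these. The 3L interior had 1.30-fold ± 0.0651 the coverage of the 2L interior and 1.22-fold ± 0.0819 that of the 3R interior (SD, n = 2). It had 29.3 ± 1.53 regions per Mb, against 22.6 ± 1.83 on 2L and 23.6 ± 3.20 on 3R. Median widths were close, at 1868 bp and 1910 bp on 2L and 1964 bp and 1900 bp on 3R. Regions of 5000 bp or more made up 2.49% and 2.84% of the 3L interior lists (13 and 16 regions). On 2L they made up 4.14% and 3.45% (15 and 14 regions), and on 3R 4.27% and 4.41% (20 and 25). The widest 3R interior region of the combined list measured 27159 bp and the widest of 3L 14348 bp.

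Regions were unevenly spaced. The median gap from one region to the next was 14382 bp in replicate 1 and 12206 bp in replicate 2. The combined list, which has more regions, had a median gap of 4893 bp. The middle 50% of gaps ran from 3981 to 39832 bp in replicate 1 and from 3493 to 35698 bp in replicate 2. Of the gaps, 10.7% and 12.1% were under 1000 bp in the replicates, and in both lists 41 gaps were 100 kb or longer. Enrichment was also concentrated within the interval. In windows of 50 kb, the 10% of windows with most coverage held 39.3% of covered bases in replicate 1 and 37.6% in replicate 2. Of 370 such windows, 103 held no covered base in either replicate, 29 were empty in replicate 1 alone, 22 in replicate 2 alone, and 216 were covered in both. The most covered window reached 56.1% in replicate 1 and 60.3% in replicate 2.

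**Figure D2:**
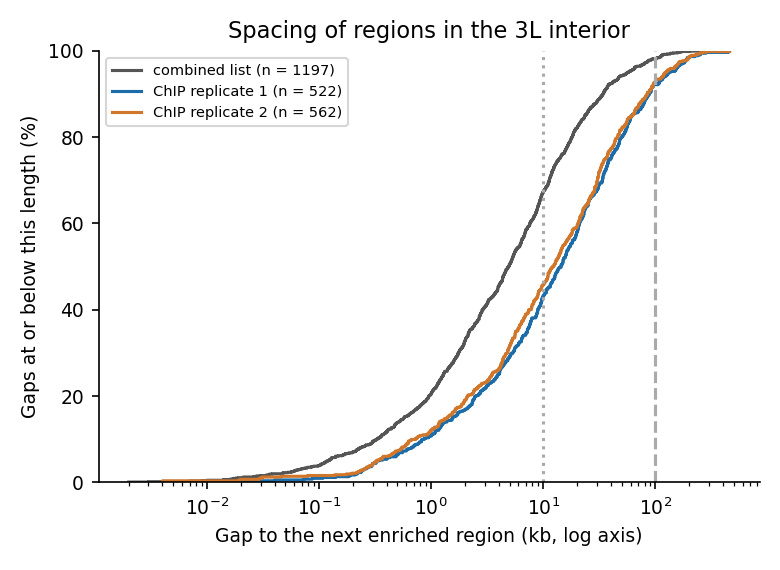
Cumulative percent of gaps between neighbouring regions of the 3L interior against gap length in kb on a log axis, for the combined list (1197 gaps) and ChIP replicates 1 (522) and 2 (562). Dotted and dashed lines mark 10 kb and 100 kb. The replicate curves nearly coincide, and the combined list is shifted to shorter gaps.

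Clusters were defined as runs of at least 5 combined regions with no gap over 10 kb. There were 69, with a median of 7 regions and spans from 16.9 to 168.5 kb (median 35.7 kb). They took up 16.4% of the interior and held 592 regions, 49.4% of the members. Replicate 1 covered 21.5% of the cluster sequence and 3.29% of the rest, and replicate 2 covered 23.5% and 3.46%. The combined list that drew the clusters is not independent of the replicates, so these values describe the clusters and do not test them. With gaps of at most 5 kb there were 44, in replicates 1 and 2 alone 13 and 17, and in the higher-scoring 50% of the combined list 3. The centromere-side segment held 28 of the 69 clusters, the telomere-side 21 and the middle 20. Combined regions in these segments numbered 475, 347 and 376 in that order.

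The cluster with most regions lay at 16883134 to 17051645, near the border of the 2 windows between 16 and 18 Mb. It held 33 regions over 168.5 kb, of which 14 were found in both replicates and 9 in neither. It was covered over 27.2% in replicate 1 and 29.5% in replicate 2, by 21 regions in each, and its highest combined score was 1.31. It contained both one of the highest-scoring regions of the interior, 16922541 to 16926077, and one of the widest, 16995030 to 17006255, which are described below. Over its 33 regions the median score was 0.393 and the median width 2008 bp, against 0.382 and 1796.5 bp over all members.

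The second cluster lay at 18979429 to 19092312. It held 23 regions over 112.9 kb, 9 in both replicates and 9 in neither. Coverage was 32.5% in replicate 1 and 33.8% in replicate 2, by 11 and 15 regions. The third, at 10753120 to 10856144, had lower coverage and a lower highest score than the first and second. Its median score was 0.393 and its median width 2043.5 bp, close to those of the first. It held 18 regions over 103.0 kb, was covered over 15.9% and 15.4%, and had no combined score above 0.645. It lay in the window of lowest coverage, between 10 and 11 Mb, beyond the longest empty stretch of the interior.

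A few clusters had no region found in both replicates. These 4, singled out after their values were seen, were 12771814 to 12810572, 1532413 to 1577616, 8625168 to 8653082 and 7117070 to 7141257. They had 5 to 8 combined regions each and no combined score above 0.471. Replicate 1 covered 0% of the first and 8.39% of the second, and replicate 2 covered 9.65% and 0%. For the third the values were 0% and 4.70%, and for the last 8.27% and 13.7%. In each of the first 3 a replicate was at 0, and most of their combined regions overlapped neither replicate, with 6 of 8, 4 of 6 and 4 of 5.

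**Figure D3:**
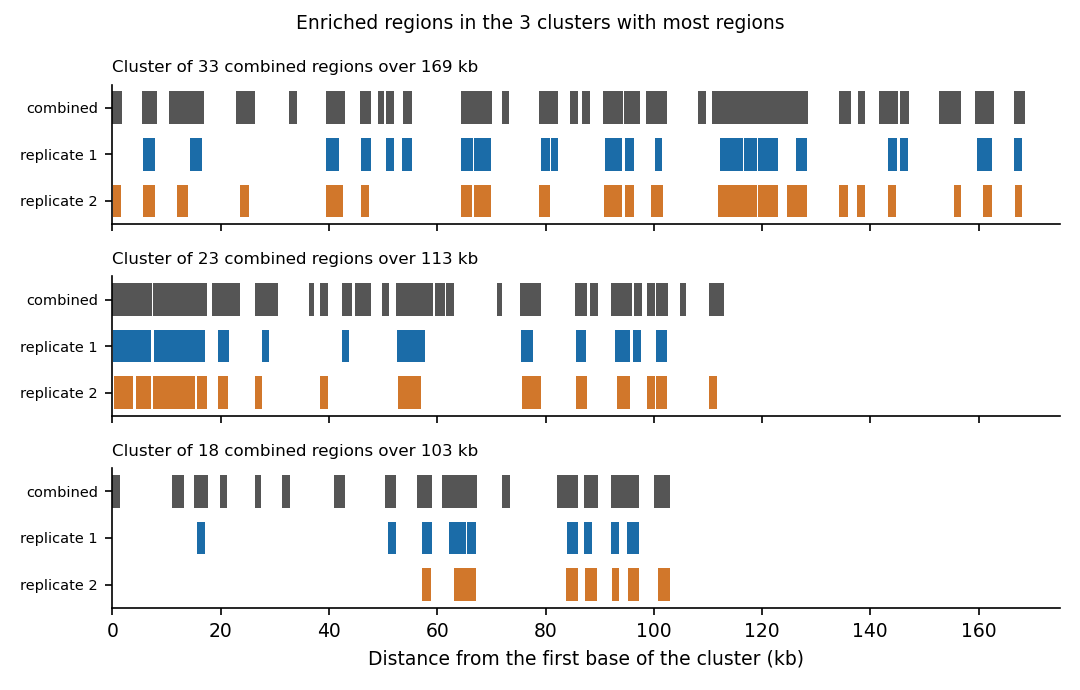
Enriched regions in the 3 clusters with most combined regions, drawn to scale by distance in kb from the first base of each cluster, in the combined list and in ChIP replicates 1 and 2. Regions closer than the line width run together in the drawing. Several blocks stand at the same place in both replicates, and the combined list adds short regions between them.

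Empty stretches of at least 100 kb without a combined region numbered 22, and 47 when the higher-scoring 50% of the list was used. The 22 summed to 3.05 Mb, 16.5% of the interior, with a median of 117 kb. Replicate 1 covered 9 bp of them in all and replicate 2 covered 150 bp, which follows from the choice of the stretches, since the combined list takes in nearly all replicate regions. The longest ran from 10300069 to 10624093 (324.0 kb), the next from 5147975 to 5350231 (202.3 kb) and from 13665450 to 13837522 (172.1 kb). They were followed by 4946109 to 5113333 (167.2 kb) and 2605256 to 2766616 (161.4 kb). No region of either replicate entered these 5. The stretches were spread along the arm, with 8 in the telomere-side segment, 7 in the middle and 7 on the centromere side.

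In the replicates taken alone, 41 stretches of 100 kb or more were empty in each, summing to 7.16 Mb in replicate 1 and 6.79 Mb in replicate 2. The longest was 459.6 kb in replicate 1 and 460.2 kb in replicate 2. Sequence empty in both replicates at once came to 35 such stretches and 5.67 Mb, 30.6% of the interior. By the same rule on the combined list, empty stretches took up 31.2% of the 2L interior (36 stretches) and 27.2% of the 3R interior (40 stretches), against 16.5% on 3L. The share of regions in clusters was 49.4% on 3L, 49.4% on 2L and 46.9% on 3R. The differences were not tested, and a list with more regions leaves less empty sequence.

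Widths and scores spanned a broad range among the members. In the combined list the width ran from 1001 to 14348 bp with a median of 1796.5 bp, and the middle 50% lay between 1321 and 2541 bp. The score ran from 0.0843 to 2.13 with a median of 0.382, and the middle 50% lay between 0.330 and 0.457. In replicate 1 the score ran from 0.141 to 1.71 and in replicate 2 from 0.266 to 2.15. The shortest region of the whole file was 1001 bp in the combined list and 1301 bp in each replicate list, so the lists differ in the shortest region they hold. Wider regions tended to have higher scores, with a Spearman rho of 0.689 in replicate 1 and 0.663 in replicate 2. Over the combined members rho was 0.469. Regions are not independent, so these are descriptions.

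The highest-scoring region found in both replicates was 9436493 to 9440623 (4131 bp), which scored 1.58 in the combined list. The replicates scored it at 1.35 and 2.15. Among the interior regions its score had rank 4 in replicate 1 and rank 1 in replicate 2. Its window, between 9 and 10 Mb, was covered over 4.10% and 5.18%, below the mean of the interior. The next was 1226322 to 1230889 (4568 bp), which scored 1.35 in replicate 1, 1.64 in replicate 2 and 1.46 when combined. It stood in a cluster in the first window of the interior, which also held the widest region of all.

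The region 2849087 to 2853098 (4012 bp) had scores of 1.495, 1.47 and 1.44 and stood alone, 31.9 kb from its nearest neighbour. Then came 16922541 to 16926077 (3537 bp), at 1.36, 1.68 and 1.31, and 16375986 to 16382876 (6891 bp), at 1.16, 1.41 and 1.28. The remaining 5 were 4224311 to 4233552, 13056401 to 13060694, 2530405 to 2532629, 6971672 to 6974328 and 3615404 to 3618238, with combined scores from 1.23 down to 1.13. All 10 ranked among the 20 highest of the interior in each replicate. Of the 10, 6 lay in the telomere-side segment, 2 in the middle and 2 on the centromere side. These segments held 347, 376 and 475 of the 1198 members in that order. The split of so few regions was not tested. Of the 10, 4 belonged to clusters, against 49.4% of all members and 53.7% of those found in both replicates.

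**Figure D4:**
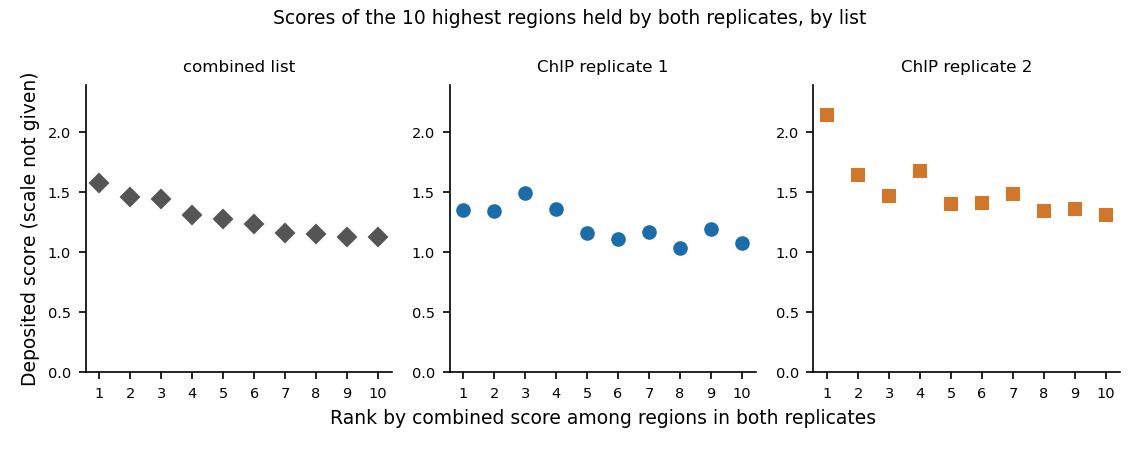
Deposited score of the 10 highest-scoring combined regions found in both replicates, in order of combined score, with a panel each for the combined list, ChIP replicate 1 and ChIP replicate 2. The scale of the score is not given, so heights are to be read within a panel. Rank 1 of the combined list is also the highest in replicate 2, and rank 3 is the highest of the 10 in replicate 1.

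The widest region was 1199633 to 1213980, with 14348 bp and a combined score of 1.08. Each replicate held it as 1 region, of 13786 bp in replicate 1 (score 1.01) and 13181 bp in replicate 2 (score 1.24). The second, 8442802 to 8455421 (12620 bp, 0.658), lay in the isolated rise between 8 and 9 Mb and was made up of 3 regions in replicate 1 and 2 in replicate 2. The third, 16995030 to 17006255 (11226 bp, 0.834), was likewise split into 3 and 2. They were followed by 16571772 to 16582748 (10977 bp, 0.712) and 7347164 to 7357488 (10325 bp, 0.475). The first of these was split into 2 in replicate 2, and the other into 2 in each replicate. All 53 combined regions of 5000 bp or more overlapped both replicates, against 31.2% of all members. A wider region has more bases with which to overlap. Of the 53, 40 stood in clusters, against 49.4% of all members.

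**Figure D5:**
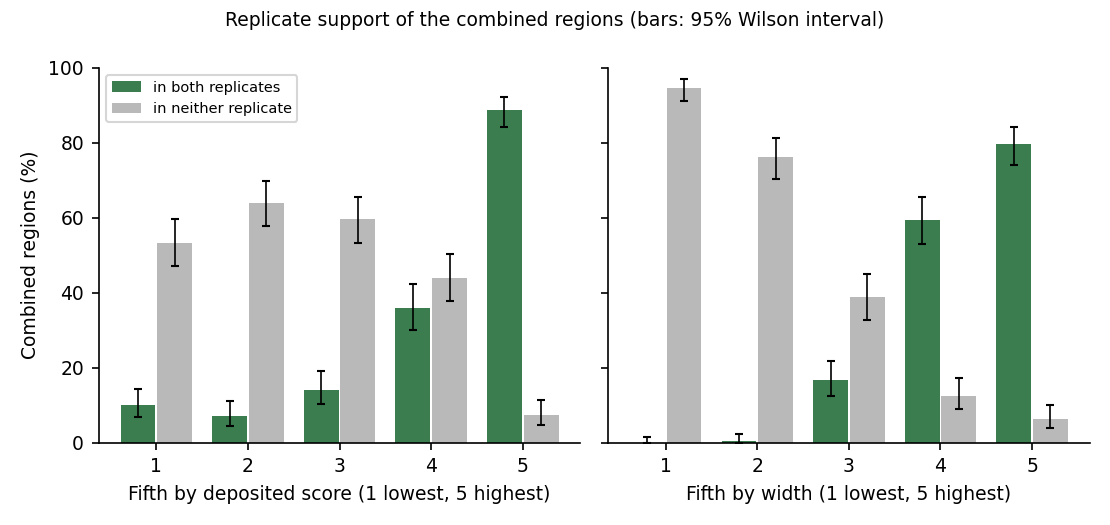
Percent of the combined regions of the 3L interior that overlapped both replicates (dark) or neither (light), by quintile of deposited score (left) and of width (right). Error bars are 95% Wilson intervals. Support in both rises to 88.8% in the highest score quintile and to 79.6% in the widest. The combined list is not independent of the replicates, and the narrowest quintile lies wholly below 1301 bp, the shortest replicate region.

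Support by the replicates was uneven. Of the 1198 members, 374 (31.2%, 95% Wilson interval 28.7 to 33.9) overlapped a region of both replicates by at least 1 bp. In the whole combined list this share was 38.6%. A further 547 (45.7%, 42.9 to 48.5) overlapped neither replicate, against 38.7% in the whole list. Replicate 1 alone supported 118 members (9.85%, 8.29 to 11.7) and replicate 2 alone 159 (13.3%, 11.5 to 15.3), against 12.1% and 10.6%. The whole list includes the interior, and these shares were not tested against each other. On the other interiors the share in both was 30.1% (27.1 to 33.2) on 2L and 28.0% (25.5 to 30.7) on 3R, and these intervals overlap that of 3L. The intervals cover counting error only and treat neighbouring regions as independent.

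Members found in both replicates were wider and scored higher, and a wider region has more bases with which to overlap. Their median width was 2838.5 bp and their median score 0.514, and they made up 48.9% of the bases in members. Those in neither had medians of 1318 bp and 0.362 and made up 30.0% of the bases. Members in replicate 1 alone (median score 0.358) and in replicate 2 alone (0.355) scored no higher than those in neither, but they were wider, at 1896.5 bp and 1779 bp. Of the members in neither, 259 (47.3%) were narrower than 1301 bp, the shortest region of the replicate lists. Among the 919 members of at least that width, 40.7% (37.6 to 43.9) were found in both and 31.3% (28.4 to 34.4) in neither. Of the 547 members found in neither replicate, 354 (64.7%) lay within 10 kb of a replicate region. Of the bases of the interior 48.3% did, counting those inside replicate regions, which such members cannot overlap. The median distance of these members to a replicate region was 5781 bp.

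Along the score scale, the share found in both replicates was 10.0% in the lowest quintile, 7.11% in the second, 14.2% in the third, 36.0% in the next and 88.8% (84.1 to 92.2) in the highest. By width it was 0% of 240 members in the narrowest quintile (up to 1264 bp; upper Wilson limit 1.58%), 0.418%, 16.7%, 59.4% and 79.6% (74.0 to 84.2) in the widest, which began at 2814 bp. The whole narrowest quintile lay below 1301 bp, the shortest region of the replicate lists. Along the arm, the share found in both was 32.0% (27.3 to 37.1) in the telomere-side segment, 25.8% (21.6 to 30.5) in the middle and 34.9% (30.8 to 39.3) on the centromere side. Inside clusters it was 34.0% and outside them 28.5%. The combined list and its scores are not independent of the replicates, so these shares describe support and do not test it.

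A high combined score did not always come with replicate support. The highest score of all members, 2.13, belonged to 16519438 to 16520442, which measured 1005 bp and overlapped neither replicate. The nearest region was 31.6 kb away in replicate 1 and 31.5 kb in replicate 2. Next among those in neither were 2064525 to 2066691 (2167 bp, 1.37) and 5113334 to 5114817 (1484 bp, 1.35). The latter bordered the empty stretch 4946109 to 5113333. Of all members, 31.2% were in both replicates and 45.7% in neither, and in the highest score quintile 7.5% were in neither. Of the 25 members with a score of 1 or more, 18 were in both and 4 in neither. Among the 15 with the highest score, 9 were in both replicates and 4 in neither. The last of these, 14718741 to 14720554 (1814 bp, 1.18), was singled out after its values were seen. Read depth at these places is unknown, because the lists give no counts.

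Between the replicates themselves, a region had only 1 other list to match. These shares are therefore not comparable with those of the combined list in both replicates. Of the replicate 1 regions in the interior, 396 of 523 (75.7%, 95% Wilson interval 71.9 to 79.2) overlapped replicate 2, close to 75.8% in its whole list. Of the replicate 2 regions, 395 of 563 (70.2%, 66.2 to 73.8) overlapped replicate 1, below 79.5% in its whole list. On 2L these shares were 76.0% and 69.0%, and on 3R 75.4% and 62.3%. Covered bases shared by both replicates came to 855 kb, 73.4% of those of replicate 1 and 68.2% of those of replicate 2, a Jaccard index of 0.546. The 351 regions that paired one to one had edges a median of 140 bp apart at the start and 124 bp apart at the end. Both edges lay within 500 bp in 72.6% of pairs, and the scores had a Spearman rho of 0.691 across pairs, which are not independent.

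Unshared regions of a replicate were narrower and lower in score. Their median width was 1508 bp in replicate 1 and 1549 bp in replicate 2, against 2032 bp and 2072 bp for shared ones, and their median score was 0.479 against 0.546 and 0.568 against 0.659. In the highest score quintile 96.2% of replicate 1 regions and 96.5% of replicate 2 regions were shared, and in the lowest 59.0% and 56.6%. The exceptions at the top, singled out after their values were seen, were large. The highest score of replicate 1 in the interior, 1.71, belonged to 11607142 to 11609811, with no region of replicate 2 within 64.7 kb of its combined region. The second highest of replicate 2, 1.93, belonged to 5455404 to 5457921, with no region of replicate 1 within 45.3 kb of its combined region. Each of these sites rests on a single library.

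The combined list took in 522 of the 523 replicate 1 regions and 559 of the 563 replicate 2 regions. The region left out of replicate 1 was 1403935 to 1405357 (score 0.418). Those left out of replicate 2 were 2568043 to 2569493 (0.559), 4285693 to 4287035 (0.481), 8184349 to 8185674 (0.539) and 16695134 to 16696455 (0.709). All 5 were under 1500 bp wide and none overlapped the other replicate. Of the 374 members found in both replicates, 328 matched exactly 1 region in each, and the other 46 joined 2 or 3 regions of at least 1 replicate.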

How the data were processed

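Enriched regions of 2 ChIP libraries and their combined list were used as the authors deposited them, in FlyBase release 5 coordinates per the file headers. Each region has a deposited score of unstated scale. The aligner was Bowtie 0.12.7, as the submitters' processing notes list it. Not given in the sources used here are the caller of the regions, its limits, the treatment of repeats and how the lists were combined. A limit on signal could drop weakly bound sites, which the lists cannot show. The lists hold no counts, so depth is unknown.

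Members, overlaps (at least 1 bp), coverage, gaps, clusters and empty stretches were computed with Python 3.11.15, pandas 2.3.3 and SciPy 1.17.1, with functions checked on simulated intervals. Named regions are the 10 highest scores found in both replicates, the 5 widest, the 3 highest scores in neither, the 3 clusters with most regions, the 5 longest empty stretches and the members at each edge. Members and rules were chosen with earlier results of these data known. No test across samples was made. Genes and sequences are not used here, for want of a release 5 genome.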

Additional observations from a re-analysis of the deposited data

How the results depend on the processing

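Of 64 values under alternative settings, 38 moved by less than the replicate SD, the counting interval or 1.5-fold, and 26 moved further. The 38 do not measure stability, since 8 leave out 1 of 2 replicates and cannot move by the SD, and 13 concern regions wholly inside the interval, a setting that changed almost nothing. Both ratios of 3L to 2L and 3R and the ratio of the centromere-side to the telomere-side segment stayed above 1 under every alternative run. With 50% reciprocal overlap, 69.2% of replicate 1 and 64.3% of replicate 2 regions were shared, and 25.6% of combined regions matched both and 48.7% neither. In the higher-scoring 50% of each list, coverage was 2.49%, with 373 combined regions, 3 clusters, 47 empty stretches, and median widths and scores averaged 2666 bp and 0.800 over the replicates. This setting keeps fewer regions and selects them by score. Its average score joins 2 lists of unstated scale, so that level is not interpreted. There, 64.6% of replicate 2 regions were shared, 26.5% of combined regions matched both and 54.4% neither, and the ratio to 2L was 1.39. With the interval moved to 2 Mb and 6 Mb from the ends, coverage was 5.91%, the ratio to 2L 1.14 and the ratio of segments 1.77. Clusters numbered 44 with gaps of at most 5 kb, and 13 and 17 in replicates 1 and 2 alone. Empty stretches numbered 69 from 50 kb and 35 in the union of the replicates. With a single replicate, coverage was 6.29% to 6.76%, the ratio of segments 1.42 to 1.61, the ratio to 2L 1.25 to 1.35 and to 3R 1.16 to 1.28. Combined regions matching that replicate made up 41.1% to 44.5% and those not matching 55.5% to 58.9%, because only 1 list has to match. No paired analysis was possible because the groups that share replicate numbers are ChIP and input, and no list gives values for an input. Ratios between stretches were taken within each replicate. Unknown depth limits what an absent region shows.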
